A study of Bos taurus with 18 samples.

Results

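The primary-stage libraries labelled Holstein-like were compared with the primary-stage libraries labelled Simmental-like, 3 against 3 of the 18 RNA sequencing libraries of the series, over all genes. Per the labels, the Holstein-like libraries come from a primary culture named PBF-15 and the Simmental-like libraries from one named PBF-13, both fibroblasts taken from cows, untreated as far as the labels say. Each culture is 1 line, the replicates are called biological, and neither the age of the cows nor the part of the body sampled is given. RNA was taken with a column kit, made into libraries with a NEBNext Ultra II kit and read on a NextSeq with a 75-cycle single-read kit. The 6 libraries were found by their column headers, which match the sample labels one to one. The data go against the fibroblast label of 1 group: skeletal muscle transcripts made up 45.1% of the counts in each Holstein-like primary library. The comparison is therefore described as a muscle-like profile against cultured fibroblasts, and "Holstein-like" and "Simmental-like" are used only as the names of the labels.

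Skeletal muscle fibres are long cells with many nuclei that are filled with sarcomeres, in which thick filaments of myosin pull on thin filaments of actin when calcium is released from the sarcoplasmic reticulum. Fast and slow fibres use different genes for the same sarcomere parts, and fibres draw energy from creatine phosphate, glycogen, glucose and fatty acids. Fibroblasts build the extracellular matrix of collagens, fibronectin and proteoglycans, hold a cytoskeleton of vimentin and non-muscle actin, and divide in culture, whereas mature muscle fibres no longer divide. Whole muscle tissue also holds vessels, nerves, fat, immune cells and its own fibroblasts.

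Total counts were 1.46e+06, 1.47e+06 and 1.42e+06 in Holstein-like replicates 1 to 3, and 2.02e+07, 2.32e+07 and 1.84e+07 in the Simmental-like ones, so depth differs with the groups by more than 10-fold. Levels are given as CPM, counts scaled to a common library size. The level that 0 counts allow, set at 3 counts, was 2.82 to 2.94 CPM in the Holstein-like libraries and 0.0858 to 0.122 in the Simmental-like ones (counting error only). Pairs of Holstein-like libraries were nearly as alike as repeated counts of 1 library would be, with a chi-square per gene of 1.20 to 1.22 (near 1 for counting noise alone), against 39.8 to 352.5 for pairs of Simmental-like libraries. Simmental-like replicate 1 stood farthest from the other 2 (352.5 and 181.0). Spearman's rho across genes was 0.945 to 0.946 within the Holstein-like, 0.964 to 0.978 within the Simmental-like and 0.787 to 0.804 between the groups. P-values therefore measure the spread between these samples, which may be technical. The headers of all 9 Holstein-like libraries of the series carry the word Rerun and those of the 9 Simmental-like ones do not, so the line, the run and the sample cannot be told apart in this comparison. The headers of the Holstein-like primary libraries begin with BEF, and those of the later stages of the same line with BF-15. On the Simmental-like side, the headers of the primary and senescent libraries carry BDF, and those of the immortalized stage carry BF instead. The number after these letters changes as well, and only the immortalized headers carry the number of the culture that the labels name. The headers thus change between stages in both lines. In bulk RNA, fewer cells of a type and less RNA per cell cannot be told apart.

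Of 11781 genes tested with edgeR, 7492 (63.6%) differed at a Benjamini-Hochberg adjusted p under 0.05. Of these, 3106 (26.4% of those tested) were higher in the Holstein-like libraries and 4386 (37.2%) were lower. Against a minimum change of 2-fold, 2096 (17.8%) were higher and 3063 (26.0%) were lower. The 3 values of 1 group lay wholly outside those of the other for 8579 genes (72.8%). The median log2 change over all tested genes was -0.42, and all log2 changes given are Holstein-like minus Simmental-like. With total counts in place of TMM scaling that median was -1.37 and the calls were 1785 higher and 6783 lower, which moved the share of higher calls from 41.5% to 20.8%. With the 3 Holstein-like libraries summed into 1 sample, 2217 genes were higher and 2576 lower. Of the tested genes, 805 passed the filter on low counts through the Holstein-like libraries alone and 2621 through the Simmental-like ones alone. Such genes were selected toward a difference, though not all were called (the epithelial marker KRT10 was not). Counts and medians over lists below therefore describe the 2 profiles and are not offered as support. Each list count stands beside the shares over all tested genes, 26.4% higher, 37.2% lower and 63.6% called.

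The 5 genes that mark the 2 profiles parted the groups without overlap. Myosin heavy chain 1 (MYH1), the motor of fast fibres, was at 88000.2, 86619.7 and 87207 CPM in Holstein-like replicates 1 to 3 and had 0 counts in the 3 Simmental-like libraries. That is at least 2.51e+06-fold higher. The calcium pump ATP2A1 was at 25990.3, 25952 and 26438 CPM against 0.611, 0.258 and 0.260 CPM. Its log2 change was 16.09 ± 0.47 (SE, n = 3 per group, adjusted p = 7.23e-08), and later values after ± are likewise SE on the log2 scale. Each SE is approximate, the size of the log2 change divided by the square root of the F statistic of its test. For genes with few counts in a group it can be smaller than counting error alone. Muscle creatine kinase (CKM), which makes ATP from creatine phosphate, was at 15677, 15834 and 15837 CPM, and the Simmental-like libraries held 1 count among them. That is a ratio of 1.36e+06 (95% counting interval 2.45e+05 to 5.39e+07). These 3 muscle genes were near or at 0 in the Simmental-like libraries. In the other direction, the type I collagen chain COL1A1 was at 139.9, 162 and 143 CPM against 11279.7, 14928 and 12968 CPM, a log2 change of -6.46 ± 0.24 (adjusted p = 1.97e-07). Vimentin (VIM), the intermediate filament of fibroblasts, was at 147, 139 and 143 CPM against 20001, 11834 and 14505 CPM, a log2 change of -6.76 ± 0.29 (adjusted p = 4.65e-07). COL1A1 and VIM were thus low but not absent in the Holstein-like libraries.

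**Figure D1:**
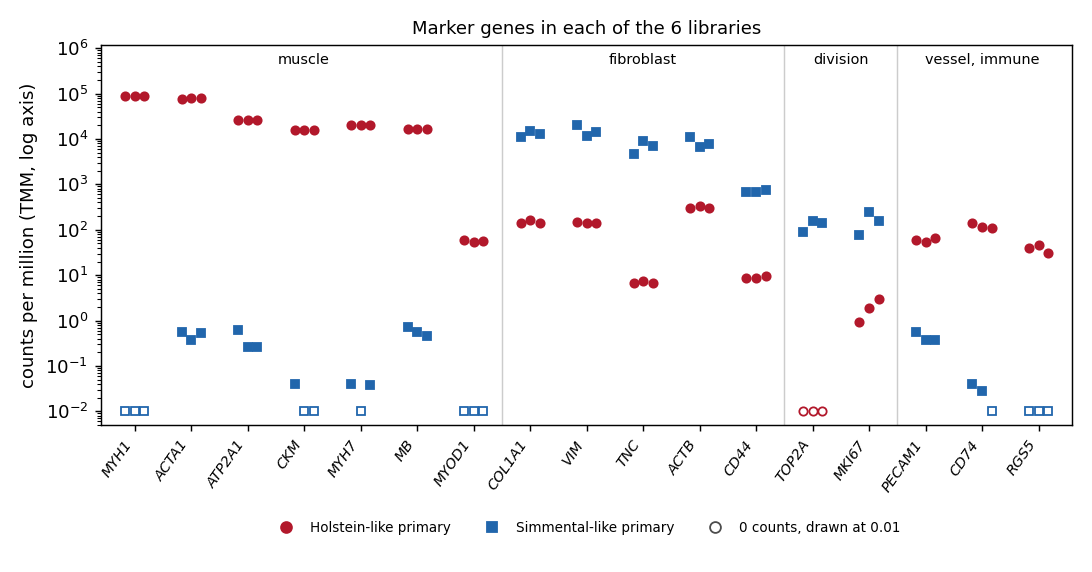
CPM after TMM scaling on a log axis for 17 marker genes in each library (circles, Holstein-like replicates 1 to 3; squares, Simmental-like replicates 1 to 3; open symbols, 0 counts drawn at 0.01). The 3 libraries of 1 group lie together and apart from the other group for every gene shown.

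Counted together, the 13 muscle lists held 167 genes of the table, of which 156 were tested, 154 were higher and 2 were lower in the Holstein-like libraries (median log2 change 11.52). Of the 156, 96 had passed the filter through the Holstein-like libraries alone. With members at 0 counts set at their lower bound, the median was 10.51. These genes took 45.1% of the counts in each Holstein-like library and 0.668% to 0.731% in the Simmental-like ones. The 5 fibroblast lists went the other way, with 79 of 83 tested genes lower, 2 higher and a median of -4.49 (-4.42 with bounds). Their share was 0.378% to 0.384% against 14.2% to 19.4%. The DNA replication and mitosis lists, 40 genes in all, were lower throughout (median -6.00, -5.14 with bounds), at 0.0198% to 0.0217% of counts against 0.383% to 0.486%. Of these 40, 27 had passed through the Simmental-like libraries alone. With the Holstein-like libraries summed, 150 muscle genes were higher and 71 fibroblast and 37 division genes were lower.

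**Figure D2:**
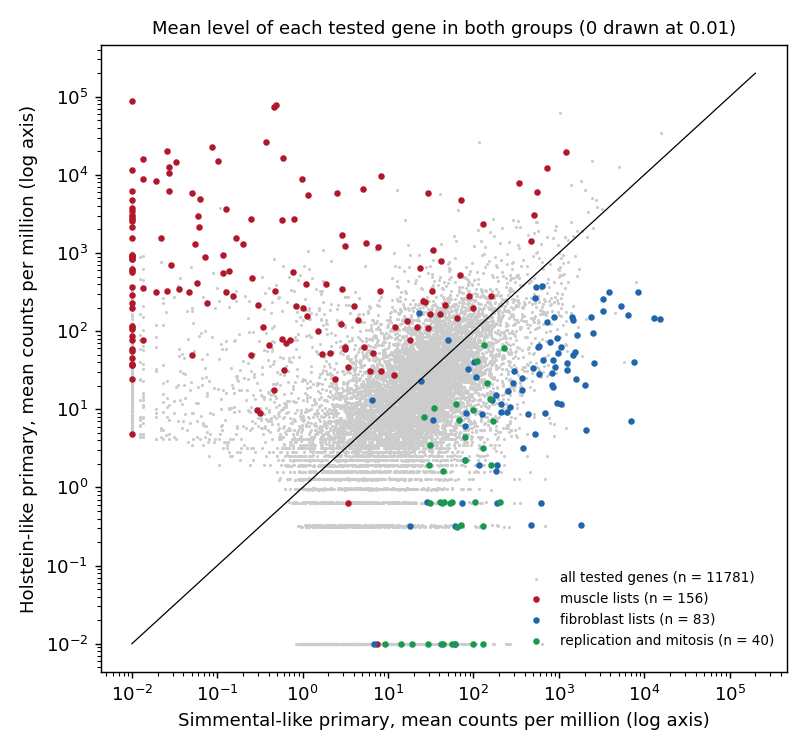
Mean CPM of each tested gene in the Simmental-like (x axis) and Holstein-like (y axis) libraries, both log axes, with 0 drawn at 0.01 and the line of equal means. Of the 156 tested muscle genes, 154 called higher lie above the line, ACADVL and HADHB close to it, and PAX3 and ACHE lie below. The division genes and 79 of the 83 fibroblast genes called lower lie below the line.

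The most abundant named genes of the Holstein-like libraries were MYH1, skeletal actin ACTA1, titin (TTN), the mitochondrially encoded COX1, ATP2A1, nebulin (NEB), slow myosin MYH7 and aldolase ALDOA. ACTA1 was at 76452, 78117 and 78448 CPM against 0.570, 0.372 and 0.520 CPM, and TTN, the spring of the sarcomere, at 74409.7, 72424 and 73562 against 0.652, 0.229 and 0.520 CPM. Those of the Simmental-like libraries were COX1, VIM, COL1A1, beta-actin ACTB, the elongation factor EEF1A1, thrombospondin THBS1, tenascin TNC and COL1A2. COX1, on both lists, was not called (adjusted p = 0.0946). The 10 genes with the largest fitted change upward were MYH1, MYH2, CKM, MYL1, MYH7, MYL2, IGFN1, CA3, TNNI2 and MYOT. All are structural proteins of muscle apart from CKM and CA3, a carbonic anhydrase abundant in slow fibres. The 10 largest downward had 0 counts in the 3 Holstein-like libraries: SST, SPP1, ESM1, CEMIP, NRN1, GPNMB, IGFBP2, TOP2A, RENBP and KIFC1. Somatostatin (SST), a secreted peptide hormone, was at 1142, 303 and 455 CPM in the Simmental-like libraries, at least 615-fold lower in the Holstein-like ones. Osteopontin (SPP1), a secreted matrix protein, was at 316, 212 and 270.4 CPM, at least 271-fold lower. SST in Simmental-like replicate 1 was well above replicates 2 and 3. The list joins secreted and membrane proteins (ESM1, CEMIP, NRN1, GPNMB and IGFBP2) with mitosis genes (TOP2A and KIFC1), and their bounds ran from 105-fold for KIFC1 to 281-fold for CEMIP below SST.

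The myosin and thick filament list had 15 tested members of 16 in the table, and all 15 were higher (median 18.36, 17.06 with bounds), beside 26.4% of all tested genes. All 15 had passed the filter through the Holstein-like libraries alone. Among the heavy chains, fast MYH1 took 73.0% to 73.4% of the counts of 6 named sarcomeric chains in a Holstein-like library, slow MYH7 16.8% to 17.2% and fast MYH2 9.50% to 9.70%. MYH2 was at 11408, 11240.5 and 11598 CPM and had 0 counts in the Simmental-like libraries (at least 328674-fold higher). MYH7, the heavy chain of slow fibres and of heart, was at 20418, 19864 and 20505 CPM, with 2 counts in all on the other side. A second row of the table named MYH7 held 1193, 995 and 1139 counts. The order MYH1, MYH7, MYH2 was the same in the 3 libraries and the shares did not overlap, but the chains are near-identical in sequence and the estimated counts could be split among them. MYH7B had 244, 247 and 232 counts. The embryonic and fetal chains had 2 to 3 and 3 to 4 counts per Holstein-like library. The embryonic chain, at 8 counts in all against 7 in the deeper Simmental-like libraries, was called higher (4.84 ± 0.57, adjusted p = 0.000131). The fetal chain had 0 counts in the Simmental-like libraries and was not tested. Of the chains outside the sarcomere, smooth muscle MYH11 (7.29 ± 0.39) was higher, and non-muscle MYH9 (-2.54 ± 0.40) and MYH10 (-3.87 ± 0.53) were lower. MYH14, also a non-muscle chain, was at 228 CPM against 2 counts in the Simmental-like libraries. Among the light chains, MYL1, of fast fibres, was at 6179, 6038 and 6253 CPM and MYL2, of slow fibres and heart, at 4592, 4736 and 4869 CPM, both against 0 counts (at least 177261-fold and 136248-fold higher).

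Fast and slow forms were both present. The fast fibre list had 12 tested members, all higher (17.97, 17.51 with bounds), and took 13.6% of Holstein-like counts. The slow fibre list had 13 tested members, all higher (13.31), and took 2.55% to 2.59%. Of these, 10 fast and 11 slow genes had passed through the Holstein-like libraries alone. Fast troponin I (TNNI2) was at 8771, 8629 and 8849 CPM and slow troponin I (TNNI1) at 957, 940.5 and 834 CPM, the latter against 0 counts. Parvalbumin (PVALB), a calcium buffer of the fastest fibres, had 1, 0 and 0 counts. Forms of developing or regenerating muscle were scarce. Of 7 such genes in the table, 3 were tested and higher: MYOG (24, 23 and 30 counts against 0), cardiac actin ACTC1 (12, 7 and 12 counts) and NCAM1 (5, 16 and 7 counts). The embryonic myosin chain, which is outside these 7, was also called higher, on 8 counts over the Holstein-like libraries. The fetal receptor subunit CHRNG and the fusion gene TMEM8C had 1 count each in the Holstein-like libraries. Heart markers were at or near 0: TNNT2, NPPA, MYL7, MYBPC3 and NKX2-5 had 0 counts, RYR2 had 1 and TNNI3 had 3.

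The thin filament list had 16 tested members and all 16 were higher (median 16.11, 14.28 with bounds). NEB, the ruler of the thin filament, was at 23132, 22432 and 22550.2 CPM against 0.204, 0.0572 and 0 CPM. Slow and cardiac troponin C (TNNC1) was at 2753, 2667 and 2741 CPM against 0 counts (at least 78334-fold higher). TNNI2, TNNC2 and ACTA1 were the other members with the largest changes. The smallest changes were in tropomyosins, which fibroblasts also use: TPM1 2.55 ± 0.21, TPM2 4.06 ± 0.42 and TPM3 1.61 ± 0.16. In TPM2, Simmental-like replicate 1 stood above the others, at 1222, 411 and 569 CPM. The titin and Z-disc list had 18 tested members, all higher (median 14.49, 14.41 with bounds). Myotilin (MYOT) was at 3502, 3423 and 3524 CPM and LDB3 at 2629.6, 2431 and 2588 CPM, both with 0 counts in the Simmental-like libraries. ACTN2, the actinin that anchors thin filaments, was at 2877, 2831 and 2955 CPM, and PDLIM3 at 971, 916 and 955 CPM, against 1 and 0 counts. Desmin (DES), the intermediate filament of muscle, was at 5672, 5856 and 5941 CPM against 0.122, 0.0286 and 0 CPM (16.69 ± 0.53). The smallest change of the list was in filamin C (FLNC), an actin crosslinker, at 4.51 ± 0.40 (adjusted p = 2.52e-05).

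Calcium release and uptake genes were higher in 18 of 18 tested cases (median 12.17, 11.85 with bounds). The release channel RYR1 was at 14594, 14443 and 14814 CPM, against 3 counts in all in the Simmental-like libraries. Junctophilin JPH1 and triadin TRDN, which hold the release unit together, were at 1552 and 923 CPM, both against 0 counts. CACNG1, a subunit of the voltage sensor, was at 229 CPM against 0 counts. The calcium store protein CASQ1 was at 5455, 5395 and 5641 CPM against 1.18, 1.23 and 1.04 CPM (12.21 ± 0.26). The slow form CASQ2 was at 30.5, 31.9 and 34.3 CPM against 0.489, 0.515 and 0.818 CPM (5.71 ± 0.34). The pump of slow fibres and most other cells, ATP2A2, was at 2433, 2363 and 2323 against 82.9, 177 and 128 CPM (adjusted p = 7.59e-06).

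Genes of creatine phosphate, glycogen and glycolysis were higher in 20 of 20 tested cases (median 7.78). Most of them were also measured in the Simmental-like libraries, and 7 had passed through the Holstein-like libraries alone. Glycogen phosphorylase PYGM, which frees glucose units from glycogen, was at 14981, 14852 and 14707 CPM against 0.204, 0.0286 and 0.0743 CPM (17.14 ± 0.52). Phosphofructokinase PFKM was at 5829, 5791 and 5888 CPM against 23.7, 32.5 and 31.3 CPM (7.64 ± 0.25). ALDOA, which splits the sugar in the next step, was at 19335, 19960.2 and 20298 CPM against 1724, 879 and 1082 CPM (4.02 ± 0.30), and lactate dehydrogenase LDHA rose by 3.44 ± 0.24. The mitochondrial creatine kinase CKMT2 was at 2099, 2183 and 2161 CPM against 0 counts. The glycolytic mutase PGAM2 was at 2146, 2203 and 2175 against 0.0407, 0.0286 and 0.111 CPM, and the AMP deaminase AMPD1 rose by 12.60 ± 0.28. The list of fatty acid use and oxygen storage was higher in 19 of 19 tested cases (median 4.77), 17 of them also against a 2-fold minimum. Myoglobin (MB), the oxygen store of muscle, was at 16398, 16600.5 and 16702 CPM against 0.733, 0.572 and 0.446 CPM (14.78 ± 0.34). The uncoupling protein UCP3 and the muscle form COX6A2 of complex IV were at 921 and 113 CPM, both against 0 counts. PDK4, which turns fuel use from glucose to fat, was at 2569.6, 2655 and 2612 CPM against 0.448, 0.715 and 0.557 CPM (12.11 ± 0.29). The smallest changes were in enzymes of fatty acid oxidation common to many cells, HADHA 1.67 ± 0.21, HADHB 1.00 ± 0.15 and ACADVL 0.80 ± 0.22, the last turning to -0.12 and not called with total-count scaling and not called without Holstein-like replicate 1 or 2. HADHB was at 0.0468 and not called with total-count scaling (adjusted p = 0.814), and not called with 18 libraries in the fit (adjusted p = 0.0632).

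Of 13 tested regulators of the muscle lineage, 12 were higher and 1 was lower (median 4.91). The lineage factor MYOD1 was at 59.01, 52.6 and 57.8 CPM and the cofactor VGLL2 at 63.8, 59.2 and 56.9 CPM, both against 0 counts (at least 1626-fold and 1727-fold higher). MYF6, the myogenic factor of mature fibres, was at 124, 109 and 109 CPM against 0.448, 0.429 and 0.149 CPM (8.33 ± 0.38), and MYOG at 22.8, 21.6 and 29.4 CPM against 0 counts. The MEF2 factors, partners of MYOD1, rose as well: MEF2C 4.91 ± 0.26, MEF2D 1.89 ± 0.22 and MEF2A 1.20 ± 0.16. MEF2A was at 0.25 and not called with total-count scaling (adjusted p = 0.2745) and not called with all 18 libraries in the fit (adjusted p = 0.122). PAX3, a factor of embryonic muscle precursors and of neural crest, was the lower member, with 0 counts against 6.81, 7.84 and 7.92 CPM (at least 7.91-fold lower). Markers of muscle stem cells were scarce. PAX7 had 3 counts and MYF5 2 counts over the 3 Holstein-like libraries, and neither was tested. Of the 7 stem cell markers 3 were tested and higher, the cadherin CDH15 (7.06 ± 0.49), CXCR4 (3.30 ± 0.42) and SDC4 (1.02 ± 0.24). SDC4 was at 0.0449 and not called with total-count scaling (adjusted p = 0.896), and its call was lost with the Holstein-like libraries summed and with 18 libraries in the fit (adjusted p = 0.0776 and 0.214).

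The costamere and membrane list was higher in 17 of 17 tested cases (median 7.35). Its members link the sarcomere to the membrane and matrix or seal the membrane. ANK1 was at 612, 611 and 631 CPM against 0 counts and dysferlin (DYSF) at 329, 355 and 342 CPM against 3.38, 2.63 and 2.56 CPM (6.90 ± 0.22). The protease CAPN3 and SMPX were at 1536 and 75.96 CPM, against 2 and 0 counts, and CMYA5 rose by 13.11 ± 0.28. Dystroglycan (DAG1), the matrix receptor found in most tissues, changed least (2.20 ± 0.52, adjusted p = 0.00616), and its call was lost with total-count scaling (1.18, adjusted p = 0.0867) and with the Holstein-like libraries summed (adjusted p = 0.09445). At the neuromuscular junction, 7 of 8 tested genes were higher (median 4.78). The acetylcholine receptor subunit CHRNA1 was at 45.7, 50.7 and 49.99 CPM against 0.122, 0.0286 and 0 CPM (9.79 ± 0.56). The clustering proteins RAPSN (6.79 ± 0.49) and DOK7 (5.23 ± 0.41) and the subunit CHRNB1 (4.32 ± 0.25) were also higher, and the subunit CHRND was at 4.80 CPM against 0 counts. The adult subunit CHRNE was at 32.4, 36.6 and 35.3 CPM against 4.81, 2.17 and 3.31 CPM (3.34 ± 0.35), while its fetal counterpart CHRNG had 1 count. Acetylcholinesterase (ACHE) was lower, with 2 counts against 4.85, 2.83 and 2.60 CPM (adjusted p = 0.0304), and the call was lost without any 1 Holstein-like library (adjusted p of 0.0626 to 0.0893). The muscle ubiquitin ligases, kelch proteins and FOXO factors were higher in 11 of 11 cases (median 12.16, 11.30 with bounds). The ligases of muscle atrophy were among them: TRIM63 at 356, 385 and 369 CPM against 0 counts, and FBXO32 at 339, 316 and 319 CPM against 0.326, 0.744 and 0.372 CPM (9.33 ± 0.34). TRIM54, TRIM72 and KBTBD5 were at 289.8, 117 and 317 CPM, against 0, 0 and 2 counts, and KBTBD10 rose by 13.41 ± 0.39. FOXO1 (3.56 ± 0.47) and FOXO3 (4.19 ± 0.58), which switch on both ligases in muscle, had the smallest changes of the list.

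**Figure D3:**
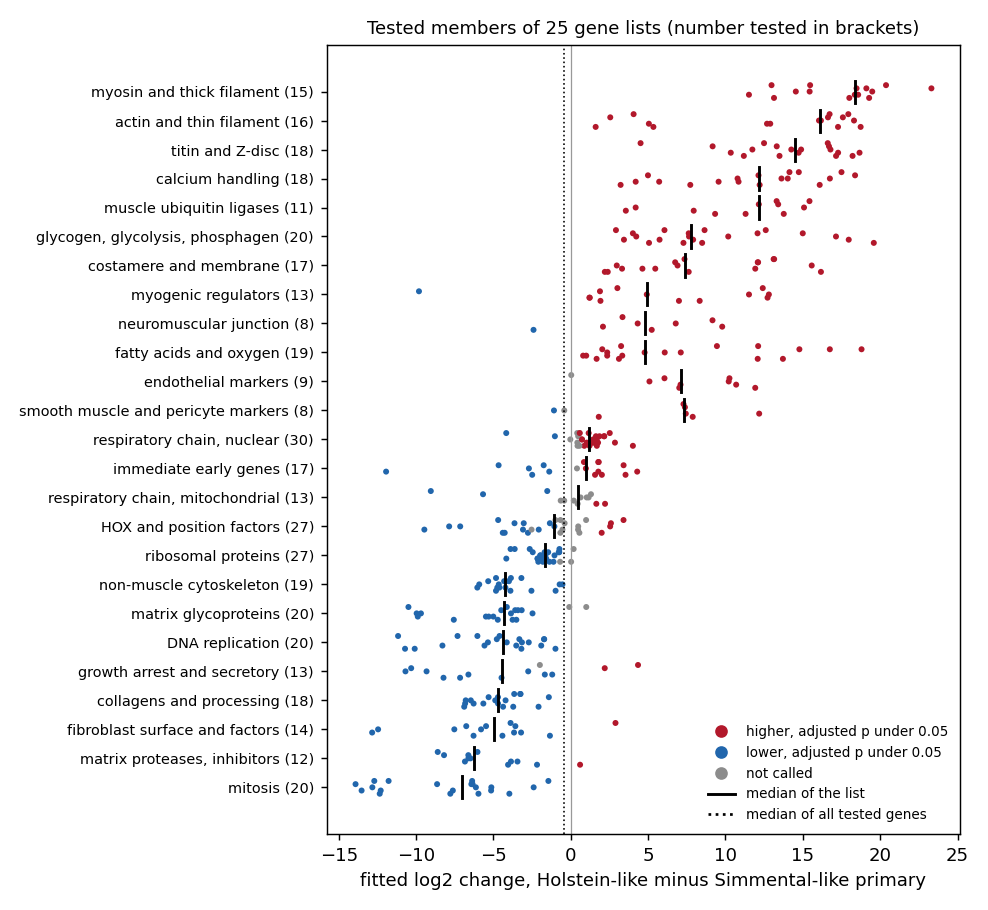
Fitted log2 change of each tested member of 25 lists (red, higher; blue, lower; grey, not called), with each list's median (bar) and the median of all tested genes (dotted line, -0.42). The muscle lists lie to the right of the dotted line, apart from PAX3 and ACHE, and most matrix, cytoskeleton and division genes to the left. The median of the mitochondrially encoded genes turns to -0.40 with total-count scaling, and fitted values of genes with 0 counts in a group depend on the fit and are no bound.

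For 24 proteins that have a muscle form and a form used by many tissues, written down after the values were seen, 20 pairs had the muscle form higher and the general form lower. In the plot of paired forms the exceptions were MYLK2 and MYLK, both higher (MYLK not called with total-count scaling), LDHA and CPT1B, whose partners LDHB and CPT1A were not called, and CACNA1S, whose partner CACNA1C was not tested. The elongation factor EEF1A2, used by muscle and neurons, was at 3798 CPM against 0.108 CPM, and EEF1A1 at 429 against 7972 CPM (-4.22 ± 0.21). The ADP/ATP carrier SLC25A4 rose by 4.02 ± 0.17. Its partner SLC25A5 had 1 count over the 3 Holstein-like libraries, against 195 CPM. DES and VIM exchanged places in the same way. LDHB was at 250.5 CPM against 332 CPM (-0.40 ± 0.17, adjusted p = 0.0602), a difference that passed the threshold without Simmental-like replicate 2, as CPT1A did (lower) without Simmental-like replicate 1. With total-count scaling LDHB (-1.34, adjusted p = 0.000114) and CPT1A (-2.61, adjusted p = 0.0139) were both called lower. Both were also called lower without the filter and with 12 libraries in the fit, and CPT1A with DESeq2 and with 18 libraries in the fit.

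**Figure D4:**
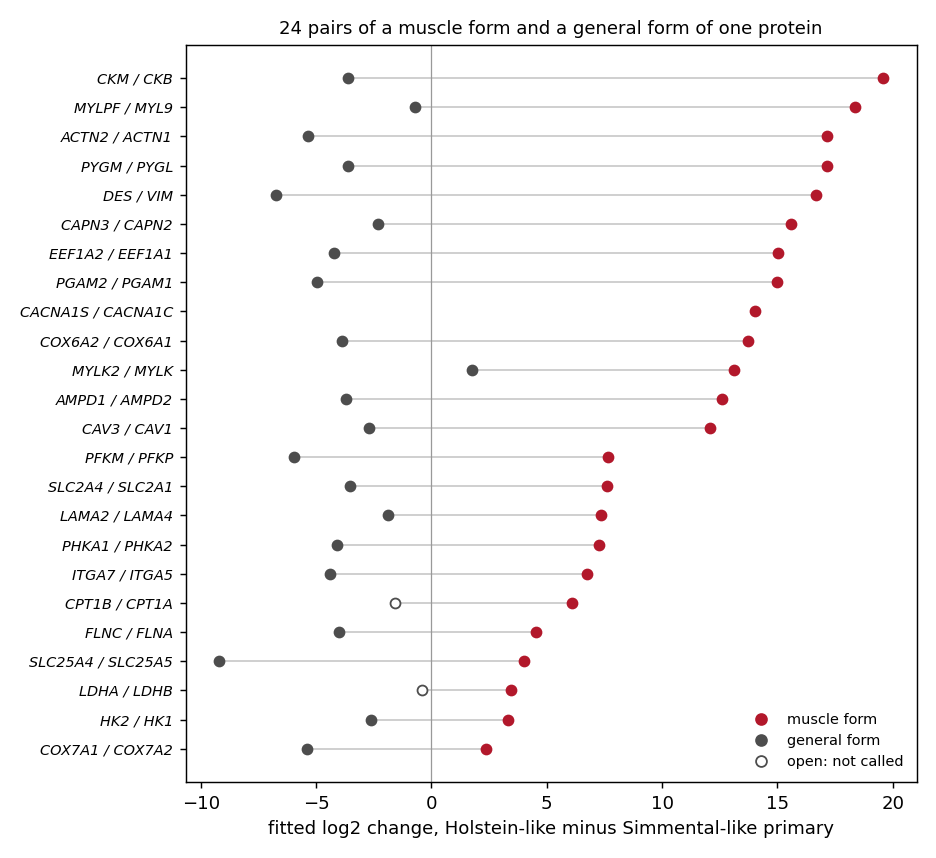
Fitted log2 change (x axis) of the muscle form (red) and the general form (grey) of 24 proteins, joined by a line, with open symbols for genes not called. The muscle form is higher in 24 of 24 pairs and the general form lower in 20.

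Most matrix genes were lower in the Holstein-like libraries. Of 18 tested collagens and collagen-processing enzymes, 18 were lower (median -4.70), beside 37.2% of all tested genes. COL1A2 was at 159, 149 and 181 CPM against 3909.7, 8501 and 7029.9 CPM (-5.31 ± 0.34), and COL3A1, the chain that accompanies type I collagen, at 262, 247 and 274 against 1882, 4508 and 3483 CPM (-3.66 ± 0.33). The crosslinking enzymes LOX (-6.89 ± 0.37), LOXL2 (-6.79 ± 0.24) and PLOD2 (-6.83 ± 0.35) had larger changes than any collagen chain of the list, the largest of those being COL1A1 and COL12A1 (-6.28 ± 0.71). The type VI chain COL6A3 (-3.25 ± 0.27), PLOD1 (-2.08 ± 0.26) and P4HA1 (-1.42 ± 0.35) changed least. Of 20 tested matrix glycoproteins, 18 were lower and 2 were not called (median -4.31, -4.0001 with bounds). TNC was at 6.66, 7.52 and 6.86 CPM against 4732, 9162 and 7122 CPM (-9.96 ± 0.39) and THBS1 at 51.4, 42.3 and 25.5 against 3571, 11458 and 7492 CPM (-7.56 ± 0.55). Periostin (POSTN) had 0 counts against 4.93, 7.47 and 8.25 CPM (at least 7.31-fold lower). THBS2 had 2 counts and WISP2 1 over the Holstein-like libraries, against means of 613 and 472 CPM. Decorin (DCN), a collagen-binding proteoglycan, was at 153, 146 and 113 CPM against 1865, 1108 and 1415 CPM (-3.41 ± 0.25). Elastin (ELN) was at 16.2, 21.6 and 31.4 against 27.8, 23.4 and 22.7 CPM with an adjusted p of 0.783, and TGFBI at 15.2, 15.03 and 8.82 against 3.95, 8.24 and 7.32 CPM with an adjusted p of 0.0578. The ELN values of the groups overlapped and those of TGFBI did not. ELN was called lower with total-count scaling (-1.04, adjusted p = 0.00959). TGFBI was called higher without Simmental-like replicate 1 or 2. RLE scaling, a filter at 5 CPM, DESeq2 and 12 libraries in the fit also called it higher (adjusted p of 0.0243 to 0.0425).

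Of 12 tested matrix proteases and inhibitors, 11 were lower and 1 was higher (median -6.26). The gelatinase MMP2 was at 37.1, 37.6 and 43.1 CPM against 1907, 2919 and 2878 CPM (-6.03 ± 0.26). The protease inhibitor TIMP1 was at 3.81, 5.64 and 6.86 against 3947, 976 and 1401 CPM (-8.60 ± 0.71), with Simmental-like replicate 1 well above the other 2. The membrane protease MMP14 (-6.62 ± 0.65) was lower too. SERPINE2 and PLAUR had 2 counts each, against means of 189 and 74.03 CPM. ADAMTS1 was the higher member, at 70.4, 91.1 and 67.6 against 50.9, 56.7 and 43.4 CPM (0.60 ± 0.21, adjusted p = 0.0326), but it turned to -0.35 with total-count scaling and lost its call without any 1 Holstein-like library or Simmental-like replicate 3. Of 14 tested surface proteins and factors of fibroblasts, 13 were lower and 1 was higher (median -4.95). The hyaluronan receptor CD44 was at 8.57, 8.46 and 9.80 against 684, 666 and 742 CPM (-6.28 ± 0.20), the growth factor receptor PDGFRA at 25.7, 25.4 and 24.5 against 305, 457 and 361 CPM (-3.89 ± 0.22). TWIST1, a mesenchymal factor, had 0 counts against 61.8, 53.3 and 69.01 CPM (at least 63.3-fold lower), S100A4 had 1 count against 3121, 1001 and 1391 CPM, and TWIST2 1 against a mean of 60.4 CPM. TBX15, a factor of limb and trunk mesenchyme and of muscle, was the higher member, at 176, 163 and 175 against 13.2, 31.3 and 24.7 CPM (2.89 ± 0.31). Of the non-muscle cytoskeleton, 19 of 19 tested genes were lower (median -4.22). ACTB was at 309, 327 and 308 against 10949, 6499 and 7953 CPM (-4.75 ± 0.26), and tropomyosin 4 (TPM4) fell from 1593 to 24.2 CPM (-6.04 ± 0.23). CNN2 (-5.92 ± 0.46), ACTN1 (-5.34 ± 0.24), ACTA2 (-4.83 ± 0.30) and TAGLN2 (-4.83 ± 0.23), which bind or form actin filaments, made up the rest of the largest changes. Vinculin (VCL), talin TLN1 and MYL9, which muscle also uses, changed least (-0.54 ± 0.20, -0.98 ± 0.21 and -0.72 ± 0.18), and the VCL call was lost without any library except Simmental-like replicate 1. The VCL call was also lost with RLE or upper quartile scaling, DESeq2 and limma-voom (adjusted p of 0.0651 to 0.101). A filter at 5 CPM, a replicate block and thinned counts lost it too (adjusted p of 0.0741 to 0.194).

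Genes of cell division were low in the Holstein-like libraries. Of the DNA replication list 20 of 20 were lower (median -4.37, -3.70 with bounds), and of the mitosis list 20 of 20 (median -7.02, -6.01 with bounds), with 7 mitosis genes at 0 counts. Topoisomerase TOP2A, which untangles chromosomes, was at 88.2, 159 and 139.9 CPM in the Simmental-like libraries (at least 139-fold lower), and cyclin CCNB1 at 108, 87.6 and 99.7 CPM (at least 102-fold lower). KIF11, BUB1B and CENPE, of the spindle and its checkpoint, had 0 counts against means of 60.8, 55.8 and 43.7 CPM. Among replication genes POLE, GINS2 and CDC6 had 0 counts against means of 19.2, 14.1 and 9.11 CPM, and RRM2 and UHRF1 had 2 counts each. The proliferation marker MKI67 was at 0.952, 1.88 and 2.94 CPM, 6 counts in all, against 78.2, 241 and 159.8 CPM (-6.38 ± 0.61). The clamp PCNA was at 22.8, 22.5 and 19.6 against 185, 108 and 134 CPM (-2.71 ± 0.26), and RRM1, which makes DNA building blocks, changed least (-0.99 ± 0.18). Of 13 tested genes of growth arrest and the secretory profile of senescence, 10 were lower, 2 higher and 1 not called (median -4.48, -2.47 with bounds). The cell cycle inhibitors CDKN2A and CDKN2B had 0 counts against means of 13.8 and 10.7 CPM (at least 13.6-fold and 11.3-fold lower), as did VEGFA and GDF15 against means of 5.35 and 2.51 CPM. LMNB1, of the nuclear lamina, had 1 count against 46.6 CPM, and CDKN1A was at 38.1, 38.5 and 39.2 against 107, 128 and 136 CPM (-1.68 ± 0.18). IGFBP5 (2.20 ± 0.29) and IGFBP7 (4.35 ± 0.30), binding proteins of growth factors, were higher, and CXCL8 was not called (adjusted p = 0.128, 1 count in the Holstein-like libraries).

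Markers of some other cells of muscle tissue were also higher in the Holstein-like libraries. Of 9 tested endothelial markers, 8 were higher and FLT1 was not called (0.03 ± 0.25, -0.93 with total-count scaling), beside 26.4% of all tested genes higher. The list summed to 0.0213% to 0.0230% of Holstein-like counts and 0.00271% to 0.00371% of Simmental-like counts. PECAM1 was at 59.96, 54.5 and 66.7 against 0.570, 0.372 and 0.372 CPM (7.09 ± 0.31), and the receptor KDR at 25.7, 36.6 and 35.3 CPM against 0 counts. CLDN5, ESAM and EMCN were at 33.2, 24.5 and 9.93 CPM, against 1, 1 and 0 counts. Of 8 tested smooth muscle and pericyte markers, 6 were higher, SMTN was lower (-1.09 ± 0.26) and LMOD1 was not called, and the sums overlapped (0.0244% to 0.0245% against 0.0229% to 0.0282%). LMOD1 was called lower with total-count scaling (-1.36, adjusted p = 0.000887). RGS5, of pericytes, was at 39.97, 45.1 and 31.4 CPM against 0 counts, and the channel subunit ABCC9 at 74.2, 71.4 and 79.4 against 0.163, 0.343 and 0.409 CPM (7.88 ± 0.35). MCAM rose by 7.38 ± 0.36, and KCNJ8 was at 5.44 CPM against 2 counts. Of 12 leukocyte markers, 5 were tested, with CD74, CSF1R (4.55 ± 0.56) and CD163 (2.49 ± 0.66) higher, CD14 lower (-2.72 ± 0.62) and CD68 not called (0 counts in the Holstein-like libraries). CD74, the chaperone of antigen presentation, was at 138, 116 and 109.8 CPM against 2 counts, and the list summed to 0.00927% to 0.0110% against 0.00161% to 0.00180%, while PTPRC had 6 and TYROBP 0 counts. Of 4 tested fat cell markers, ADIPOQ (23.8, 46.04 and 27.4 CPM against 0 counts), THRSP (7.30 CPM against 0 counts) and CIDEC (1.56 ± 0.53) were higher and FABP4 was not called. The calls of CIDEC, without Holstein-like replicate 1 or 2, and CD163, without Holstein-like replicate 3, were lost, and both were lost with total-count scaling. With any Simmental-like library left out, the filter on low counts was rerun and 9296 to 9663 genes were tested, beside 11781. Then 1 gene was called higher in each of the leukocyte, fat cell and Schwann cell lists, members that no longer passed the filter not being counted. Among the Schwann cell markers, MBP (6.02 CPM) and S100B (2.45 ± 0.25) were higher, PMP22 was lower (-0.98 ± 0.22) and PRX was not called, with SOX10 at 0 counts. Their summed share was lower in the Holstein-like libraries (0.00555% to 0.00832% against 0.0105% to 0.0133%). PMP22 is also used by fibroblasts. The part of these cells in the results was not tested. Red cell, kidney and liver lists had no tested member, with 0 counts over the red cell and kidney lists in the Holstein-like libraries, 1 count for ALB and 3 for APOA1. Of 7 keratinocyte and epithelial markers only KRT10 was tested, and it was not called.

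The respiratory chain was split. Of 30 tested nuclear genes, 21 were higher, 2 were lower and 7 were not called (median 1.18), beside 26.4% higher, 37.2% lower and 63.6% called over all tested genes. With total-count scaling the median was 0.26 and 12 were higher. SLC25A4 was at 2755, 2676 and 2774 against 174, 158 and 175 CPM. The complex I subunit NDUFS1 was at 503, 446 and 514 against 48.4, 81.6 and 71.9 CPM (2.86 ± 0.23), and the complex II subunit SDHD at 105, 107 and 116 against 13.9, 21.6 and 21.5 CPM (2.52 ± 0.23). SDHC (2.17 ± 0.16) and the complex III core subunit UQCRC2 (2.15 ± 0.15) followed. COX5B, NDUFB10, UQCRB, COX4I1, COX6C, NDUFB8 and ATP5O were not called, at -0.03 (COX5B) to 0.56 (ATP5O), and these 7 were called higher without Simmental-like replicate 1. The lower members were COX7C, at 3.81, 5.64 and 8.82 against 189, 56.9 and 82.7 CPM (-4.17 ± 0.58), and ATP5G1 (-1.03 ± 0.36), whose call was lost without any library except Simmental-like replicate 2. Of the 13 mitochondrially encoded genes, 2 were higher, 3 lower and 8 not called, with a median of 0.45 that turned to -0.40 with total-count scaling. They took 5.73% to 5.82% of Holstein-like counts. Simmental-like replicate 1 gave them 9.92%, and the other 2 gave 2.50% and 3.12%. COX1, of complex IV, was at 33634, 34810.4 and 35288 against 31687, 6666 and 8290.4 CPM, so that replicate 1 lay beside the Holstein-like libraries and replicates 2 and 3 below them. Cytochrome b (MT-CYB) was higher in all 3 Holstein-like libraries, at 8401, 8218 and 8405 against 3659, 769 and 958 CPM (2.22 ± 0.56), and ND1 was higher by 1.65 ± 0.56. MT-ND6, read from the opposite strand of the mitochondrial genome, was lower (-1.52 ± 0.55). ND2, MT-ND3, COII, ATP6, ND5, MT-ND4 and COX3 were not called, though ND2 (-1.27, adjusted p = 0.0402) and MT-ND3 (-1.49, adjusted p = 0.0261) were called lower with total-count scaling. Without Simmental-like replicate 1, 10 of the 13 were higher, and without any 1 Holstein-like library or Simmental-like replicate 3 only MT-CYB was, the ND1 call being lost. The MT-ND6 call was lost without any 1 Holstein-like library. With total-count scaling ND1 was at 0.80 and not called (adjusted p = 0.1635), and with the Holstein-like libraries summed neither ND1 nor MT-CYB was called (adjusted p = 0.215 and 0.117), so that 0 of the 13 were higher. MT-ATP8 and MT-ND4L, the shortest of these genes, overlap the genes next to them, between which reads can be split. They had 4 and 17 counts over the Holstein-like libraries against 1385, 288 and 367 and 549.6, 125 and 157 CPM (-9.05 ± 1.00 and -5.67 ± 0.81).

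**Figure D5:**
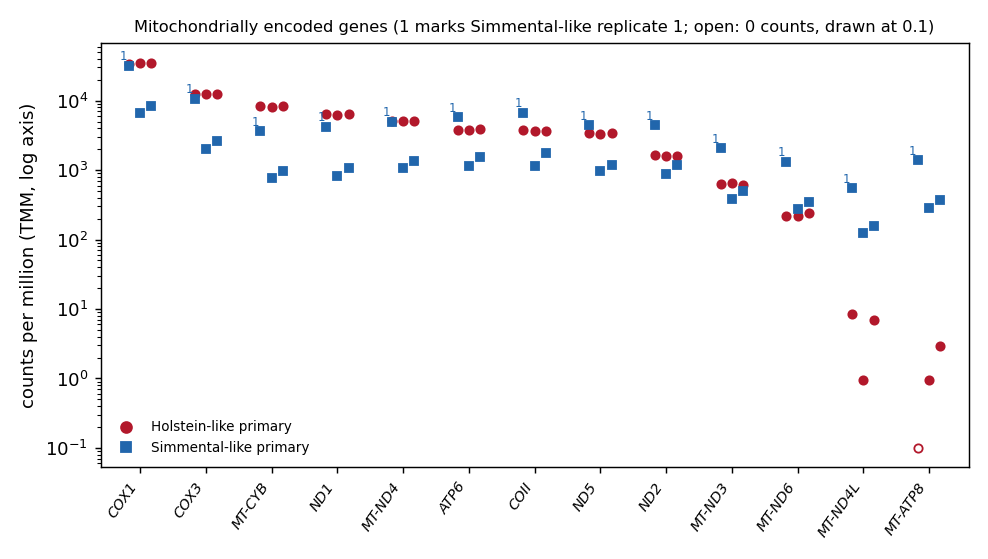
CPM after TMM scaling (log axis) of the 13 mitochondrially encoded genes in each library (circles, Holstein-like; squares, Simmental-like, with replicate 1 marked; open, 0 counts drawn at 0.1). Simmental-like replicate 1 lies above replicates 2 and 3 for every gene, and MT-ND4L and MT-ATP8 are far lower in the Holstein-like libraries.

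Cytosolic ribosomal protein genes were lower in 24 of 27 tested cases and not called in 3, among them RPLP1 and RPS2 (median -1.69), beside 37.2% of all tested genes lower. They took 0.755% to 0.791% of Holstein-like and 2.67% to 4.62% of Simmental-like counts. RPL3 was at 60.9, 70.5 and 70.6 against 1681, 857 and 1088 CPM (-4.17 ± 0.29). RPS6 was at 52.3, 45.1 and 42.2 against 1196, 373 and 504 CPM (-3.89 ± 0.46). RPL19 (-3.62 ± 0.41), RPS19 (-2.65 ± 0.36) and RPS18 (-2.46 ± 0.42) came next. RPS2 was at 1781, 1925 and 1953 against 2379, 1386 and 1805 CPM (0.02 ± 0.22, -0.90 with total-count scaling). With the Holstein-like libraries summed, 8 were lower. Without Simmental-like replicate 1, RPS2 and RPLP1 were called higher. Many ribosomal protein genes have near-identical copies, among which estimated counts could be split. For 8 genes with very short transcripts, chosen after their values were seen and in part members of the lists above, found on 14 rows (RPL39, RPS29, RPL38, FAU, COX7C, COX7A2, ATP5I and TMSB10), the summed share was 0.00750% to 0.00807% in the Holstein-like primary libraries and 0.183% to 0.512% in the Simmental-like ones. It was 0.0408% to 0.238% in the other 6 Holstein-like libraries and 0.174% to 0.219% in the other 6 Simmental-like ones. The genes differed, in CPM per total counts. In the other 6 Holstein-like libraries RPS29 was at 0 to 0.0716 and the most abundant RPL39 row at 0.0750 to 2.27. The Simmental-like libraries of all stages had 12.3 to 36.4 and 61.8 to 207. For RPL38, FAU, COX7A2, ATP5I and TMSB10 the other Holstein-like libraries overlapped the Simmental-like ones, and the rows of COX7C were mixed. The part of transcript length in the ribosomal and respiratory chain values was not tested.

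Immediate early genes, which many cells switch on within minutes of a stimulus, went in both directions. Of 17 tested, 10 were higher, 6 lower and DUSP1 not called (median 0.98, 0.01 with total-count scaling, where 6 were higher). Over all tested genes 26.4% were higher and 37.2% lower. NR4A1 was at 369, 356 and 349 against 42.7, 29.8 and 28.3 CPM (3.41 ± 0.21). The stress factor ATF3 was at 102, 108 and 125 against 10.2, 8.64 and 9.996 CPM (3.54 ± 0.21) and BTG2 at 48.5, 60.1 and 50.97 against 2.36, 2.66 and 3.08 CPM (4.29 ± 0.26). FOSB (2.01 ± 0.54) and NR4A2 (1.81 ± 0.25) were also higher. FOS was at 266, 261 and 269 against 113, 57.9 and 61.4 CPM (1.78 ± 0.27), and JUN (0.85 ± 0.17) turned to -0.09 with total-count scaling. FOSL1 had 0 counts against 22.4, 41.3 and 34.8 CPM (at least 35.4-fold lower), IER3 was at 4.76, 7.52 and 8.82 against 242, 131 and 162 CPM (-4.66 ± 0.35) and IER2 (-2.71 ± 0.36), JUNB (-2.49 ± 0.34) and EGR1 (-1.75 ± 0.22) were lower as well. DUSP1 was at 228, 241 and 248 against 253, 142 and 148 CPM (0.40 ± 0.24). It turned to -0.51 and was called lower with total-count scaling, and it was called higher without Simmental-like replicate 1. The FOSB call was lost without Holstein-like replicate 3 and with total-count scaling, and with the Holstein-like libraries summed 6 genes were higher.

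HOX genes, whose combination records the position of a cell along the body and limb, and other position factors went in both directions. Of 39 in the table, 27 were tested, 4 were higher, 13 were lower and 10 were not called (median -1.06, -0.99 with bounds). Over all tested genes 63.6% were called, so the share of calls does not set this list apart. Among the higher genes were HOXC10, at 21.9, 18.8 and 13.7 against 1.67, 1.72 and 1.71 CPM (3.41 ± 0.34), HOXD9, at 39.97, 37.6 and 52.9 against 6.36, 7.81 and 8.14 CPM (2.55 ± 0.26) and HOXA3 (2.60 ± 0.39). HOXC10 and HOXD9 belong to the posterior groups. The forelimb factor TBX5 had 0 counts against 7.01, 5.78 and 4.94 CPM (at least 6.13-fold lower), and its hindlimb counterpart TBX4 had 0 counts in both groups. HOXB2 was at 4.76, 0 and 0 against 47.9, 35.9 and 40.5 CPM (-4.69 ± 0.71) and HOXC4 at 1.90, 1.88 and 1.96 against 58.4, 28.9 and 34.04 CPM (-4.40 ± 0.47). MSX1 (-3.64 ± 0.63), HOXB4 (-2.07 ± 0.49), HOXA9 (-1.35 ± 0.38) and HOXC6 (-1.06 ± 0.31) were also lower. HOXB3, HOXC5, HOXB7 and BARX1 were lower on 2 to 3 counts over the Holstein-like libraries, against means of 18.6, 5.49, 5.31 and 6.57 CPM. HOXA11 and HOXB5 had 0 counts against means of 1.93 and 1.18 CPM, under the level that 0 counts allow in 1 Holstein-like library. HOXA4, HOXA5, HOXA6, HOXA7, HOXA10, HOXC8, HOXC9, HOXD3, HOXD4 and PITX1 were not called. Of these, HOXA6 had 1 count and PITX1 3 counts over the Holstein-like libraries, and the others had log2 changes from -0.99 (HOXC9) to 0.99 (HOXA4). With total-count scaling HOXA5 (-1.58, adjusted p = 0.0220), HOXA6 (-3.41, 0.0138), HOXC8 (-1.38, 0.01535), HOXC9 (-1.88, 0.00247) and HOXD4 (-1.40, 0.0423) were called lower. HOXC9 was also called lower with 12 libraries in the fit (adjusted p = 0.0355). Leaving out 1 library changed several calls of this list. The calls of HOXA11 and HOXB5 were lost without any 1 Holstein-like library, those of HOXA9, HOXC6 and BARX1 without replicate 1, that of HOXC6 also without replicate 2 and that of BARX1 without replicate 3. Without Holstein-like replicate 1, 8 genes were lower, and without Simmental-like replicate 2 or 3, where fewer genes passed the filter on low counts, 2 genes were higher. HOXA7 and HOXA10 were called higher without Simmental-like replicate 1, and HOXC9 lower without replicate 2. HOXA10 was at 39.97, 24.4 and 24.5 against 22.4, 20.3 and 21.4 CPM. Among the 12 not tested, HOXD1 had 6 counts over the Holstein-like libraries and 0 in the Simmental-like ones (at least 55.1-fold higher). HOXD10 had 8 counts against 32. Others, among them HOXA2, HOXA13, HOXC11, HOXD13, TBX4, ALX1, ALX4, DLX5 and GATA4, had 0 counts in the Holstein-like libraries. Apart from HOXA9, at 32.4, 38.5 and 37.3 against 149.8, 61.5 and 64.7 CPM, each HOX gene was under 60 CPM in every library, so the level of 2.82 to 2.94 CPM that 0 counts allow in a Holstein-like library bears on most of them.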

How the data were processed

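The authors deposited estimated counts per gene for 18 libraries, not all of them whole. The submitters' processing notes name bovine build UMD3.1. The name of the deposited table gives salmon as the counting tool. The sources used here do not give its version or its use of strand. Columns were matched to samples by their headers, and 0 columns belonged to no sample. Where a symbol stood on more than 1 row, the row with the most counts was used.

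Estimated counts of the 6 primary libraries were rounded and filtered with filterByExpr (about 1.01 CPM in 3 libraries). They were scaled by TMM and tested with edgeR 4.0.16 (quasi-likelihood, R 4.3.3, two-sided, Benjamini-Hochberg 0.05, and glmTreat for 2-fold). Alternatives used limma 3.58.1, DESeq2 1.42.0, other scalings, filters, sets of libraries, thinned counts and summed libraries. CPM values are per TMM-scaled total. Folds against a group at 0 counts are bounds, set with 3 counts over that group. Intervals and floors cover counting error only. The fit was tested on simulated data.

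The members and lists were chosen with earlier results of these data known. Genes were named by rule: the 5 markers; the 8 most abundant named genes per group; the 10 with the largest change per direction among non-overlapping genes of at least 10 CPM; up to 5 called members per list and direction, with those not called or against the list; the myosin heavy chains; and the position list. Some members fitting that rule are not reported here, and other members named were chosen after their values were seen. Of 541 listed symbols, 518 were in the table. Replicate numbers did not pair the samples: deviations of same-numbered libraries correlated at -0.00513 to 0.0108. Promoter motifs and sequences were not analysed here.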

Additional observations from a re-analysis of the deposited data

How the results depend on the processing

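With 0 counts, a gene could be at up to 2.82 to 2.94 CPM in a Holstein-like library. With total-count scaling 1785 genes were higher and 6783 lower, and 1306 and 5263 against a 2-fold minimum. With the Holstein-like libraries summed, 2576 were lower, 1717 of them against a 2-fold minimum, and 4733 of the 7492 calls kept their sign and call. Leaving out 1 library gave 2487 to 3267 higher and 3211 to 4067 lower calls, and 1698 to 2075 and 2278 to 2731 against a 2-fold minimum. The filter on low counts was rerun each time. It left 12540 to 12546 genes tested without a Holstein-like library and 9296 to 9663 without a Simmental-like one, so these calls differ in the genes tested as well. With a replicate block, 3140 were higher and 4300 lower, and the replicate numbers share only a number. With the Simmental-like libraries thinned, 8985 genes were tested, 2933 were higher and 3241 lower, and the median log2 change was -0.15. Of the main calls, 6202 were still tested and 5796 were kept. In that run 5 mitochondrially encoded genes were higher, among them COX1, COX3 and MT-ND4. The counts of higher muscle genes, lower fibroblast genes and lower division genes stayed within 1.5 times the reported ones under each alternative run, at 145 to 157, 71 to 80 and 37 to 40. With total-count scaling these log2 changes turned sign: ACADVL -0.12, ADAMTS1 -0.35, DUSP1 -0.51, FLT1 -0.93, JUN -0.0925, RPS2 -0.90 and the median of the mitochondrially encoded genes -0.40. Genes called with neither scaling were left out of that list. DUSP1, FLT1 and RPS2 were called lower with total-count scaling (adjusted p = 0.0405, 0.0136 and 0.00253). So were CD68, COX5B, CPT1A, CXCL8, ELN, HOXA5, HOXA6, HOXC8, HOXC9, HOXD4, KRT10, LDHB, LMOD1, MT-ND3 and ND2. None of these was called with TMM scaling. Without Simmental-like replicate 1, COX5B turned to 0.70, MT-ND3 to 0.60 and ND2 to 0.75, from -0.241, -0.94 and -0.708 without replicate 2. Of the genes named, CD163, CIDEC, DAG1, FOSB, HADHB, MEF2A, MYLK, ND1 and SDC4 lost their call with total-count scaling. With the Holstein-like libraries summed, ACADVL, ACHE, ADAMTS1, ATP5G1, ATP5I, BARX1, CIDEC, DAG1, FAU, FOSB, HOXA9, HOXA11, HOXC6, JUN, MT-CYB, MT-ND6, MYH9, MYH10, MYL9, ND1, P4HA1, PMP22, RPS18, RPS19, RRM1, SDC4, SMTN, TLN1 and VCL lost theirs. With 18 libraries in the fit, the losses among genes not yet named here were ACTC1, CD14, HOXB5, HOXB7, IGFBP5, S100B, TBX5, TBX15, TPM1 and TPM3, beside ACADVL, ACHE, ADAMTS1, ATP5G1, BARX1, CD163, CIDEC, HADHB, HOXA9, HOXC6, JUN, MEF2A, MT-ND6, MYL9, ND1, PMP22, SDC4, SMTN and VCL. The keratinocyte list, with more members tested, had a median of 2.30 with 12 libraries in the fit and 4.11 with 18. The cause was not tested.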

Other observations

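Of 136 genes with 0 counts in the 3 Holstein-like primary libraries and at least 10 CPM in each Simmental-like primary library, 3 also had 0 counts in the other 6 Holstein-like libraries of the series, which the comparison does not use. These 3, singled out after their values were seen, were PAX6, a factor of eye and brain, VGF, a secreted neuronal peptide precursor, and SST. PAX6 had 402, 360 and 314 counts in Simmental-like primary replicates 1 to 3, and VGF had 367, 565 and 567. A wider count, in CPM per total counts, took in genes that part all 9 libraries of each line. Of 4386 genes called lower, 1532 (34.9%) had all 9 Holstein-like libraries below all 9 Simmental-like ones, beside 16.2% of tested genes. Of 3106 called higher, 391 (12.6%) had all 9 above all 9, beside 3.32% of tested genes. The part of line and run in these was not tested.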
